A study of Mus musculus with 10 samples.

Results

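Genes with a locus of 500000 bases or more were followed through microglia taken from mouse brainstem by laser capture or by flow sorting. The members were the rows of the deposited gene expression table whose locus, end minus start, spans at least 500000 bases on an autosome, and 192 of 37447 genes met this rule. It uses position only and no expression value. Another 13 genes of that span lie on the X chromosome and were left out by the rule.

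Microglia are the macrophages that live in the brain and spinal cord, and here they came from the brainstem of mice aged 6 weeks in 3 groups. GFP expressing microglia were captured by laser microdissection in 4 libraries (LCM_GFP, 3 female and 1 male), GFP expressing microglia were flow sorted in 3 libraries (FACS_GFP, 2 female and 1 male), and wild-type microglia of the C57BL/6 strain were flow sorted in 3 libraries (FACS_WT, 3 male). The labels give no strain for the GFP mice and do not name what drives the GFP. Brainstem slices for laser capture were briefly fixed and frozen, and their RNA was released with proteinase K and acid phenol. Tissue for sorting was dissociated and enriched on Percoll, and its RNA was taken up with TRIzol. Isolation method therefore cannot be told apart from fixation and RNA extraction. Libraries are called biological replicates, but the labels do not tie each to a separate animal, so p-values measure the spread between these libraries. Levels are FPKM as the authors deposited them, fragments scaled to the length of the transcript and to the mapped fragments of the library, so that levels of different genes can be compared.

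A very long gene is almost all intron. Its spliced messenger RNA is a small part of what RNA polymerase II must transcribe, and a single passage along such a locus takes hours. Many genes of this kind encode neural cell adhesion molecules, channels and synaptic scaffolds, and several lie at common fragile sites, where chromosomes break when replication is slowed. Microglia, as phagocytes, are known for other members such as Elmo1, which acts with Dock proteins to drive actin during engulfment.

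The members spanned 501752 bases (Edil3) to 3009069 bases (Fgfr2), with a median of 713300 bases, and 47 reached 1000000 bases. By Ensembl identifier 187 of them matched GENCODE M21, a later annotation on another build, and 183 of those were also of 500000 bases or more there. The other 4, Arfip1, Rasgrf2, Arhgap26 and Gm15710, spanned 86533, 251257, 383140 and 636 bases in that annotation, and none of them was called in LCM_GFP against FACS_GFP. The median member had 17 exons and a spliced length of 5797 bases, and its spliced sequence made up 0.753% of the locus. All autosomal genes tested had a median span of 21527 bases, 7 exons and 3299 spliced bases. The members were thus longer in transcript as well as in locus, and 186 of the 192 were protein-coding. The longest, Fgfr2, a fibroblast growth factor receptor at chr7:137305965-140315033 (mm9, the build of the files), holds 41 other gene rows inside its locus, 19 of them at a mean of 1 FPKM or more. Of all members, 162 shared their locus with at least 1 other gene row and 51 with one at a mean of 1 FPKM or more. Whether the libraries kept strand is not stated, so reads of overlapping genes may not be separable.

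Promoter sequences of 5 members are shown as examples of genes lower or higher after laser capture. Inpp4b was not called in LCM_GFP against FACS_GFP, and the Elmo1 call was lost under 10 of 15 alternatives. Elmo1, Inpp4b, Mctp1 and Fhit were at their highest in the sorted libraries, and Cntnap2 was at or near 0 there. Each line gives the 200 bases that end just before a RefSeq start (GRCm38.p6, 5′ to 3′ on the strand of the gene), in lower case, with matches in capitals to GGGCGG (the GC box bound by Sp1) or TGACTCA (bound by AP-1), on either strand. The windows lie at chr13:20090307-20090506 (plus), chr8:81342362-81342561 (plus), chr13:76579397-76579596 (plus), chr14:11162036-11162235 (minus) and chr6:45059861-45060060 (plus).
Elmo1: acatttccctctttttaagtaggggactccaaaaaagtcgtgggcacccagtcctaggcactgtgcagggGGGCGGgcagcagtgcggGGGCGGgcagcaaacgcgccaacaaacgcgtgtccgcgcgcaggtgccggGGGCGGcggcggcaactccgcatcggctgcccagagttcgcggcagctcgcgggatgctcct
Inpp4b: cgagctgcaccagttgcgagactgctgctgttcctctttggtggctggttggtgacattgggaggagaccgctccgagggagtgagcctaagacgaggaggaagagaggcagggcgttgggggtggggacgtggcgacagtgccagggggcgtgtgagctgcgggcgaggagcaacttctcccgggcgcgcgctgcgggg
Mctp1: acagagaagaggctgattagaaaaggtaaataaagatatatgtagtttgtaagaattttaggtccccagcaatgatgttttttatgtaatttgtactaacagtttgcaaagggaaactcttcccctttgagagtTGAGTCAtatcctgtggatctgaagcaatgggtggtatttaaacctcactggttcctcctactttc
Fhit: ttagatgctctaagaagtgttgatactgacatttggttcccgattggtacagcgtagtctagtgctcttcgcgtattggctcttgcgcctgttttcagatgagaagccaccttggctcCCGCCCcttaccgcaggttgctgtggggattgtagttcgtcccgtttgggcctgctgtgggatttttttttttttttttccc
Cntnap2: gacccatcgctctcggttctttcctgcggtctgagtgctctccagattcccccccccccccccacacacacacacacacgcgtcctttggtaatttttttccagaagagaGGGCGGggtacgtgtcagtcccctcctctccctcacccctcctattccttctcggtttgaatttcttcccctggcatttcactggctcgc
Elmo1 held 3 GC boxes, Fhit and Cntnap2 1 each, Mctp1 1 AP-1 match, and Inpp4b none of the motifs searched. RefSeq gives Elmo1, Fhit and Cntnap2 another start each, not printed, and the 200 bases before it hold 1 GC box for Fhit and none of the motifs for Elmo1 and Cntnap2. RefSeq windows of 300 bases, 250 before and 50 after the start, were found for 151 of the 192 members (242 windows). Their median GC content was 56.7%, against 52.7% over all 32851 RefSeq windows, and their median number of CpG dinucleotides was 12, against 7. The GC box stood in 43% of member windows and in 35.7% of all windows. TATAAA stood in 9.5% against 13.6%, GAGGAAGT (a PU.1 site) in 2.07% against 3.2%, and TGACTCA in 2.07% against 5.2%. In the 67 windows of the 42 matched members at 1 FPKM or more in every sorted library, the GC box stood in 43.3%, TATAAA in 7.46%, GAGGAAGT in 4.48% (3 windows) and TGACTCA in 1.49% (1 window). These are matches of letters and say nothing of binding.

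Laser-captured libraries differed among themselves, and 2 of them stood apart. The summed level of Hbb-y, an embryonic globin, and of Mki67 and Top2a, genes of dividing cells, was 1355 and 529 FPKM in laser-captured libraries 1 and 3. It was 14.7 and 2.36 FPKM in libraries 2 and 4, and 1.83 to 8.81 FPKM in the sorted libraries. All 8 microglial markers were present in every group, summing to 1115 to 2390 FPKM after laser capture, 3412 to 4046 FPKM in sorted GFP and 4023 to 5269 FPKM in sorted wild-type libraries. The 7 neuronal markers summed to 557, 1095, 1453 and 1855 FPKM in laser-captured libraries 1 to 4 and to 1.79 to 9.81 FPKM in the sorted ones. Corresponding sums were 1363 to 4819 against 19.2 to 29.2 FPKM for 6 oligodendrocyte markers, 426 to 797 against 1.38 to 3.09 FPKM for 5 astrocyte markers, and 62.5 to 175 against 13.5 to 23.3 FPKM for 4 endothelial markers. For 3 markers of oligodendrocyte precursors they were 48.0 to 102 against 0.0794 to 0.362 FPKM. In LCM_GFP against FACS_GFP, limma called 6 of 6 oligodendrocyte, 6 of 7 neuronal, 5 of 5 astrocyte, 3 of 3 precursor and 3 of 4 endothelial markers higher and 4 of 8 microglial markers lower. Of the neuronal markers, 1 was listed at 0 in every sorted GFP library and 2 in every sorted wild-type library. The part of these other cell types in the values of the long genes was not tested. In such bulk libraries, fewer cells of a type and less RNA per cell cannot be told apart.

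Sorted microglia expressed a minority of the very long genes and the laser-captured libraries the majority. In the 6 sorted libraries 51 to 53 of the 192 members reached 1 FPKM, and 36 to 38 reached 10 FPKM. In laser-captured libraries 1 to 4, 124, 153, 147 and 169 members reached 1 FPKM, and 64, 91, 85 and 123 reached 10 FPKM. A total of 51 members were at 1 FPKM or more and 31 at 10 FPKM or more in all 6 sorted libraries, while 138 stayed under 1 FPKM in all 6 and 29 were listed at 0 in all 6. Of the members, 39 reached 1 FPKM in all 10 libraries, 15 in none, and Hpse2 and Skint5 were listed at 0 throughout. The share of all FPKM taken by the members was 0.593% to 1.29% after laser capture and 0.523% to 0.67% after sorting. Across the 192 members, whose levels share library depth and amplification, log2(FPKM + 1) correlated at r = 0.993 to 0.998 between sorted GFP and sorted wild-type libraries. Among laser-captured libraries r was only 0.623 to 0.743, and a laser-captured library correlated with a sorted one at 0.2 to 0.401. For the 51 genes, the median coefficient of variation was 0.682 across laser-captured libraries, 0.104 across sorted GFP and 0.141 across sorted wild-type libraries.

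**Figure D1:**
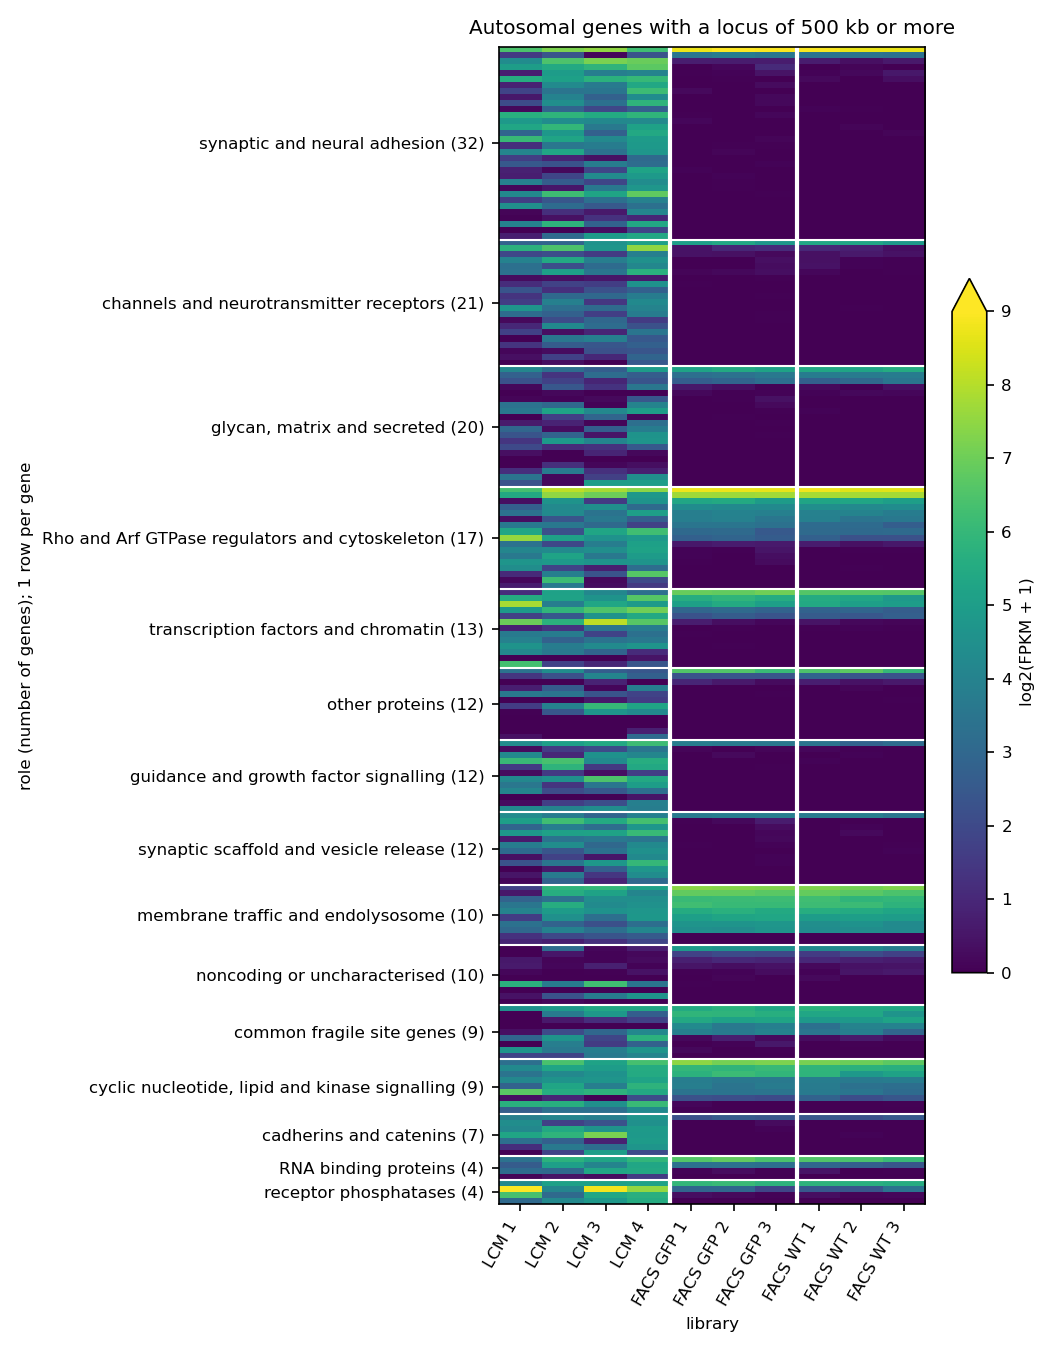
Level of each of the 192 genes as log2(FPKM + 1) by colour (rows, grouped by role with the number of genes) in the 10 libraries (columns); values above 9 take the top colour. Most rows are dark in all 6 sorted libraries and bright in the 4 laser-captured ones, and the 51 genes at 1 FPKM or more in every sorted library appear as brighter rows there.

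The comparison of LCM_GFP with FACS_GFP asked how the isolation method bears on these genes. Most members that could be tested were higher after laser capture. With limma on log2(FPKM + 1), 151 members had 1 FPKM in at least 3 of the 7 libraries and were tested, 88 of them were higher and 12 lower at a Benjamini-Hochberg adjusted p under 0.05 over all genes, and 51 were not called. An unadjusted p under 0.05 was reached by 128 members and by 44.9% of all genes. Over all 13403 genes tested, 12.5% were called higher and 19.6% lower. Of the 151 members, 104 had every laser-captured library above every sorted GFP library and 28 had every one below, where 48.2% of all genes had groups that did not overlap and 17% had the laser-captured group above. Differences are log2(FPKM + 1) of the laser-captured minus the sorted group, are given with limma's standard error (SE) and adjusted p, and understate the change of low genes. The median was 2.80 over the members and -0.60 over all genes tested. These counts follow in part from the filter. A total of 98 of the tested members were under 1 FPKM in every sorted GFP library, so they could be tested only where they were high after laser capture, and 80 of them were called higher, 18 were not called and 0 were lower. The 51 members at 1 FPKM or more in every sorted GFP library were not chosen that way, and 6 were higher, 12 lower and 33 not called, with a median of -1.21. Scaling each library by median ratios moved the median of all genes from -0.60 to -0.12 and gave 85 members higher and 8 lower. Leaving out laser-captured library 1 raised the number of lower members to 19, and leaving out any 1 sorted GFP library gave 47 higher and 3 lower.

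**Figure D2:**
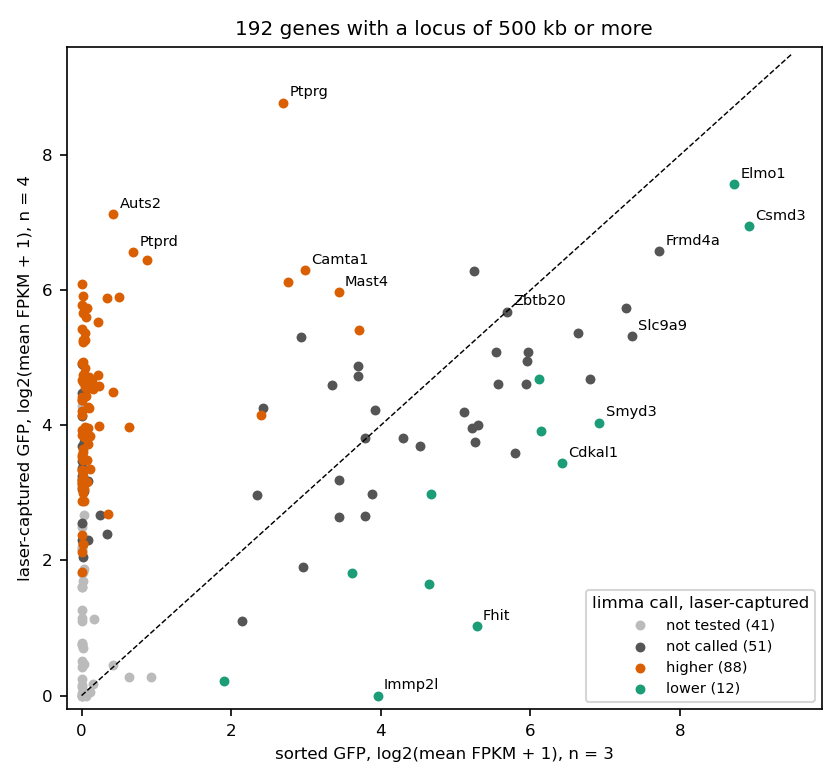
Mean level of the 192 genes as log2(mean FPKM + 1) in sorted GFP libraries (x axis, n = 3) and in laser-captured libraries (y axis, n = 4), coloured by the limma call, with equal levels on the dashed line. A column of genes near 0 on the x axis holds most of the 88 higher genes, and the 12 lower genes lie below the line, with Immp2l at 0 on the y axis.

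Laser-captured libraries 2 and 4, without the embryonic globin signal, were also compared on their own. With only these 2 and the filter set to 2 libraries, an alternative chosen after seeing the data, 154 members were tested, 107 were higher and 19 lower, where 19.1% of all 13727 genes were called higher and 31.7% lower. Of these members, 101 were under 1 FPKM in every sorted GFP library and so had to be high in both laser-captured libraries to be tested, and 97 of them were higher and 0 lower. The 51 at 1 FPKM or more in every sorted GFP library gave 8 higher, 19 lower and 24 not called. In all, 93 of the 100 original calls were kept (82 higher, 11 lower), and 18 with the filter left at 3 libraries (7 higher, 11 lower). The original calls rest on these same libraries among others, so the calls kept are not independent of them. Within the laser-captured group, library 4 was the highest of the 4 for 79 of the 151 tested members and library 1 the lowest for 79. The sum of neuronal markers was also highest in library 4 and lowest in library 1, and the part of this in the members' levels was not tested.

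Locus span and the calls moved together over the whole gene table. Of the autosomal genes tested, 8.33% were higher after laser capture for loci under 10 kb, 9.06% for 10 to 50 kb, 13% for 50 to 100 kb, 24.9% for 100 to 250 kb, 39.6% for 250 to 500 kb and 58.3% for 500 kb or more. The share of tested genes under 1 FPKM in every sorted GFP library, which had to be high after laser capture to be tested, rose alongside from 8.63% to 64.9%. Lower calls went the other way, from 26.2% of the shortest class to 7.95% of the longest. After median-ratio scaling the shortest class had 9.96% higher and 15.5% lower and the longest 55.2% and 5.19%. Detection in all 6 sorted libraries peaked at 56.8% of genes of 50 to 100 kb and fell to 26.6% of genes of 500 kb or more, while detection in all 4 laser-captured libraries was 51.7% and 57.3% for those classes. Among genes at 1 FPKM or more in every sorted GFP library the trend in the median was not seen: the medians of the 6 classes, from short to long, were -1.08, -0.84, -0.67, -0.58, -0.78 and -1.21. The share called higher was 2.88%, 2.35%, 3.33%, 6.66%, 5% and 11.8% in the same order, so it was higher for long loci in these genes too, and the longest class rests on 6 of 51 genes. Under median-ratio scaling those shares ran from 4.57% in the shortest to 13.7% in the longest class. The medians under that scaling were -0.65, -0.36, -0.17, -0.07, -0.24 and -0.68. The median of the longest class thus lay as low as that of the shortest under both scalings. Genes of one class differ in cell type and function, and the part of span itself was not tested.

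**Figure D3:**
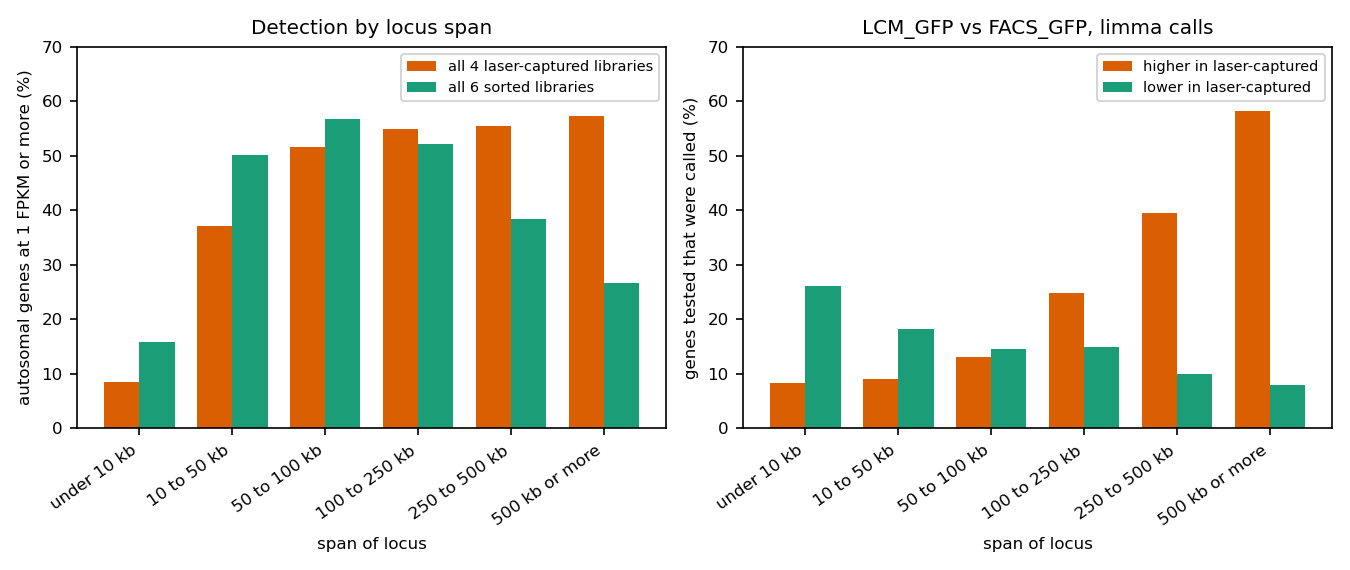
Autosomal genes by span of the locus (x axis), with, on the left, the percent at 1 FPKM or more in all 4 laser-captured or all 6 sorted libraries and, on the right, the percent of tested genes called higher or lower in LCM_GFP against FACS_GFP. Higher calls rise from 8.33% to 58.3% from the shortest to the longest class, and detection in sorted libraries falls to 26.6% in the longest.

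In the counts by role, members under 1 FPKM in every sorted GFP library could be tested only where they were high after laser capture, so their direction follows from the filter, and over all genes tested 12.5% were higher and 19.6% lower.

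Synaptic and neural adhesion genes formed the most numerous role, with 32 members, and nearly all were at or near 0 after sorting. Of the 26 tested, 23 were higher, 2 lower (Csmd3 and Sdk1) and 1 was not called, and 29 of the 32 were under 1 FPKM in all sorted libraries. Of the tested ones, 23 were under 1 FPKM in every sorted GFP library, and they hold 22 of the 23 higher calls. Ptprd, a receptor phosphatase that organises synapses (chr4:75587142-77857865), stood at 19.8, 88.4, 146 and 121 FPKM in laser-captured libraries 1 to 4 and at no more than 0.629 FPKM in any sorted library (difference 5.56 ± 0.70 SE, adjusted p = 0.00092). Nrxn3, a presynaptic neurexin that binds neuroligins, stood at 49.6, 57.0, 44.8 and 58.6 FPKM after laser capture, and at 0.0275, 0 and 0.117 FPKM in sorted GFP and 0.00532, 0 and 0 FPKM in sorted wild-type libraries (5.67 ± 0.39 SE, adjusted p = 9.92e-05). For both genes the 4 laser-captured values lay above every sorted value. Lsamp, a GPI-anchored protein of the IgLON family on neurons, measured 17.4, 71.9, 37.2 and 111 FPKM against at most 0.0363 FPKM after sorting (5.6 ± 0.65 SE, adjusted p = 0.00068). For Cntnap2, a neurexin-like protein that clusters potassium channels along the axon (chr6:45010060-47251368), the laser-captured values were 39.6, 60.8, 11.5 and 34.7 FPKM and the highest sorted value was 0.08 FPKM (5.01 ± 0.59 SE, adjusted p = 0.00073). Lphn3, a latrophilin adhesion receptor, was at 48.0, 33.8, 53.2 and 64.3 FPKM after laser capture and at most 0.247 FPKM after sorting (5.61 ± 0.42 SE, adjusted p = 0.000152).

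Csmd3 was an exception within the adhesion genes and the most abundant very long gene of sorted microglia. It encodes a large membrane protein with CUB and sushi domains, the latter shared with regulators of complement, at chr15:47412183-48623609. Its level was 431, 538 and 489 FPKM in sorted GFP, 476, 411 and 418 FPKM in sorted wild-type and 86.8, 148, 180.4 and 73.8 FPKM in laser-captured libraries. No laser-captured value reached the lowest sorted one, and the log2 difference was -2.07 ± 0.37 SE, adjusted p = 0.00471. Sdk1, a sidekick adhesion protein, went the same way at a lower level: 10.6, 12.7 and 10.5 FPKM in sorted GFP and 1.88, 4.21, 0.106 and 3.88 FPKM in laser-captured libraries (-2.03 ± 0.62 SE, adjusted p = 0.0385). Its call was lost under 8 of 15 alternative settings, with an adjusted p of 0.14 to 0.155 without any 1 sorted GFP library. In contrast to Csmd3, its relatives Csmd1 and Csmd2 were under 1 FPKM in every sorted library.

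Cadherins and catenins, which join cells through calcium-dependent adhesion, had 7 members, all tested, with 6 higher and 1 (Ctnna3) not called. Of these, 6 were under 1 FPKM in every sorted GFP library and hold 5 of the 6 higher calls. Cdh13, a GPI-anchored cadherin, was at 38.4, 57.1, 146 and 28.2 FPKM after laser capture and at most 0.0502 FPKM after sorting (5.80 ± 0.60 SE, adjusted p = 0.000458). Pcdh9, a protocadherin, was at 17.3, 41.9, 23.8 and 28.6 FPKM against at most 0.0647 FPKM (4.74 ± 0.46 SE, adjusted p = 0.000341), and Cdh18 varied more, at 20.5, 2.31, 3.85 and 21.9 FPKM (3.15 ± 0.76 SE, adjusted p = 0.0169). The Cdh18 call was lost without any 1 sorted GFP library (adjusted p = 0.0759 to 0.0831) and with a pseudocount of 5 (0.0523). Ctnnd2, a delta-catenin of neuronal dendrites, was the member of this role also present after sorting, at 3.67, 4.82 and 4.30 FPKM in sorted GFP, and it rose to 13.4, 15.5, 13.6 and 24.7 FPKM (1.72 ± 0.42 SE, adjusted p = 0.0176). This call was lost without any 1 sorted GFP library (adjusted p = 0.108 to 0.132) and with the replicate block (0.0995).

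Axon guidance and growth factor signalling genes, both ligands and receptors, had 12 members, of which 10 were tested, 8 were higher and 2 were not called. Of those tested, 9 were under 1 FPKM in every sorted GFP library and hold 7 of the 8 higher calls. Robo2, the receptor through which Slit proteins repel axons, was listed at 0 in all 6 sorted libraries and stood at 18.6, 15.2, 19.9 and 13.1 FPKM after laser capture (adjusted p = 0.000366). Dab1, the adaptor of reelin signalling, was at 16.8, 21.8, 88.4 and 41.9 FPKM against at most 0.00623 FPKM (5.14 ± 0.62 SE, adjusted p = 0.000761). Fgfr2, whose locus holds many expressed genes, was at 67.7, 82.6, 18.6 and 47.6 FPKM against at most 0.063 FPKM (5.6 ± 0.57 SE, adjusted p = 0.000449). These 3 genes were all at or near 0 after sorting. Erbb4, a neuregulin receptor, was high in 2 laser-captured libraries only, at 1.99, 57.1, 1.82 and 42.6 FPKM, and its call (3.57 ± 1.17 SE, adjusted p = 0.049) was lost under 9 alternative settings, with an adjusted p of 0.132 to 0.134 without any 1 sorted GFP library. Sema6d, a transmembrane semaphorin, was the member of this role present in sorted microglia, at 13.2, 12 and 10.9 FPKM in sorted GFP and 10.2, 6.34 and 7.78 FPKM in sorted wild-type libraries, and it was at 19.3, 32.9, 42.3 and 71.3 FPKM after laser capture (1.56 ± 0.49 SE, adjusted p = 0.0418). The Sema6d groups did not overlap, but the call was lost under 8 settings, with an adjusted p of 0.141 to 0.163 without any 1 sorted GFP library.

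Channels and neurotransmitter receptors had 21 members, of which 16 were tested, 12 were higher, 4 were not called and 19 were under 1 FPKM in all sorted libraries. Of those tested, 14 were under 1 FPKM in every sorted GFP library and hold 11 of the 12 higher calls. Kcnip4, a calcium-binding partner of A-type potassium channels, was at 52.8, 87.7, 24.8 and 180.1 FPKM after laser capture and 0.359, 0.956 and 1.16 FPKM in sorted GFP libraries (5.26 ± 0.67 SE, adjusted p = 0.000995). Dpp6, another partner of those channels, was at 9.29, 32.2, 10.3 and 51.9 FPKM against at most 0.26 FPKM (4.19 ± 0.67 SE, adjusted p = 0.00276), and Trpm3, a cation channel, at 15.0, 42.4, 13.5 and 22.5 FPKM against at most 0.309 FPKM (4.34 ± 0.52 SE, adjusted p = 0.000694). All 4 laser-captured values of each lay above the sorted ones. Kcnma1, the pore of the large-conductance calcium-activated potassium channel, was the member of this role present in sorted microglia, at 32.5, 41.4 and 26.5 FPKM in sorted GFP and 38.9, 36.9 and 27.9 FPKM in sorted wild-type libraries. After laser capture it was at 6.31, 6.60, 23.2 and 33.6 FPKM, the groups overlapped, and it was not called (-1.21 ± 0.64 SE, adjusted p = 0.182).

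Synaptic scaffold and vesicle release genes had 12 members, with 9 tested, 7 higher and 2 not called. All 7 higher ones were among the 8 under 1 FPKM in every sorted GFP library. Anks1b, a postsynaptic ankyrin-repeat protein, was at 32.1, 75.3, 44.3 and 80.8 FPKM after laser capture and at most 0.613 FPKM after sorting (5.48 ± 0.49 SE, adjusted p = 0.000289), and Dlg2, the scaffold PSD-93, at 26.3, 34.2, 35 and 65.2 FPKM against at most 0.173 FPKM (5.23 ± 0.46 SE, adjusted p = 0.000275). Syt1, the calcium sensor of vesicle release and also 1 of the 7 neuronal markers, was at 3.94, 10.7, 26.4 and 63.5 FPKM against at most 0.065 FPKM (4.13 ± 0.83 SE, adjusted p = 0.00814). Magi1, a scaffold of cell junctions, was at 19.5, 12.7, 6.39 and 13.9 FPKM after laser capture and 12.2, 13.2 and 13.3 FPKM in sorted GFP libraries, and the groups overlapped (-0.07 ± 0.46 SE, adjusted p = 0.924).

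Receptor phosphatases not counted with the adhesion genes had 4 members, of which 3 were higher and Ptprm was not called. Ptprd and Ptprt, also receptor phosphatases and both called higher, were counted with the adhesion genes. Ptprg varied widely after laser capture, at 1091, 15.9, 461 and 183 FPKM, against 6.81, 6.97 and 2.67 FPKM in sorted GFP libraries (5.03 ± 1.27 SE, adjusted p = 0.0197). With laser-captured libraries 2 and 4 alone its difference was 3.19, adjusted p = 0.0678 and it was no longer called, nor was it without any 1 sorted GFP library (adjusted p = 0.0586 to 0.0779). Ptprk was at 82.7, 7.61, 39.9 and 50.2 FPKM against at most 0.273 FPKM (4.91 ± 0.76 SE, adjusted p = 0.00251), and Ptprn2, of dense-core vesicles, was listed at 0 in all sorted libraries and stood at 7.53, 17.7, 27.1 and 45.7 FPKM after laser capture (adjusted p = 0.00149). Ptprm, a phosphatase of endothelial and other cell contacts, stood at 17.5, 33.3, 33.7 and 35.8 FPKM after laser capture and 61.2, 67.2 and 54.9 FPKM in sorted GFP libraries. Its groups did not overlap, but it did not pass the test (-1.05 ± 0.38 SE, adjusted p = 0.064).

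Transcription factors and chromatin proteins had 13 members, with 12 tested, 7 higher, 1 lower and 4 not called. Of the 7 higher ones, 6 were under 1 FPKM in every sorted GFP library. Auts2, a partner of Polycomb complexes in neurons, had the largest difference of all members, at 124, 53.3, 275 and 100.0 FPKM after laser capture and 0.654, 0.262 and 0.107 FPKM in sorted GFP libraries (6.47 ± 0.58 SE, adjusted p = 0.000316). Camta1, a calmodulin-binding transcription activator, was present after sorting, at 6.93, 7.59 and 6.28 FPKM, and reached 28.4, 59.2, 90.4 and 131 FPKM after laser capture (3.10 ± 0.54 SE, adjusted p = 0.00429). Smyd3, a lysine methyltransferase at chr1:180882091-181448172, was the lower one. It measured 119, 112 and 130.2 FPKM in sorted GFP, 95.6, 98.6 and 96.4 FPKM in sorted wild-type and 1.18, 34.8, 17.0 and 8.79 FPKM in laser-captured libraries, with no overlap (-3.48 ± 0.86 SE, adjusted p = 0.0184). The Smyd3 call was lost without any 1 sorted GFP library (adjusted p = 0.0686 to 0.0771), and under 6 of 15 settings against sorted wild-type. Foxp1, a forkhead transcriptional repressor that acts in monocyte and lymphocyte development, was at 226, 13.0, 38.8 and 28.6 FPKM after laser capture. It was at 34.1, 44.1 and 33.1 FPKM in sorted GFP libraries, so that laser-captured library 1 alone lay far above the sorted range (0.22 ± 0.85 SE, adjusted p = 0.861). Zbtb20, a zinc finger repressor, overlapped between the groups, at 45.7, 35.4, 23.5 and 96.7 against 48.3, 57.6 and 46.3 FPKM (-0.20 ± 0.49 SE, adjusted p = 0.78).

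Regulators of small GTPases and the cytoskeleton had 17 members, 9 of them present in all sorted libraries. Of the 15 tested, 6 were higher, 1 was lower and 8 were not called, and 5 of the 6 higher ones were under 1 FPKM in every sorted GFP library. Elmo1, at chr13:20182488-20698397, was at 433, 429 and 407 FPKM in sorted GFP, 446, 374 and 385 FPKM in sorted wild-type and 81.3, 274, 226 and 173 FPKM in laser-captured libraries. All laser-captured values lay below all sorted ones, but the call (-1.29 ± 0.42 SE, adjusted p = 0.0478) sat just under the threshold and was lost under 10 of 15 alternatives, among them leaving out any 1 sorted GFP library (adjusted p = 0.141 to 0.152) and median-ratio scaling, where the difference was -0.74, adjusted p = 0.209. Its partner in engulfment, Dock1, overlapped between the groups, at 5.61, 18, 21.3 and 7.62 FPKM after laser capture and 19.7, 18.3 and 18.1 FPKM in sorted GFP libraries (-0.66 ± 0.53 SE, adjusted p = 0.368). Frmd4a, a FERM-domain scaffold linked to Arf6 activation, was at 209, 204 and 216 FPKM in sorted GFP, 226, 221 and 221 FPKM in sorted wild-type and 43.7, 182, 127 and 26.9 FPKM in laser-captured libraries (-1.52 ± 0.64 SE, adjusted p = 0.104). Arhgap15, a Rac GTPase-activating protein of leukocytes, was at 39.4, 43.6 and 29.3 FPKM in sorted GFP libraries and split after laser capture, at 0.264, 23.9, 1.90 and 23.7 FPKM (-2.46 ± 1.09 SE, adjusted p = 0.116). For both, the groups did not overlap and the test was not passed.

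Membrane traffic and endolysosomal genes had the largest share of members present in sorted microglia, with 8 of 10 at 1 FPKM or more in all 6 sorted libraries. The lipid, cyclic nucleotide and kinase signalling role was close, with 7 of 9. Of the 9 tested, 3 were lower (March1, Exoc4 and Mctp1), 1 was higher (Sorcs1) and 5 were not called. Slc9a9, a sodium-proton exchanger of endosomes, measured 170.1, 162 and 158 FPKM in sorted GFP, 156, 138 and 157 FPKM in sorted wild-type and 2.23, 57.5, 63.1 and 33.3 FPKM in laser-captured libraries (-2.70 ± 0.98 SE, adjusted p = 0.068). Mctp1, a C2-domain calcium-binding membrane protein, measured 67.5, 70.0 and 71.4 FPKM against 6.21, 9.19, 20.6 and 20.6 FPKM (-2.37 ± 0.49 SE, adjusted p = 0.00897). All 4 laser-captured values of both genes were below the sorted ones. The Mctp1 call was lost without any 1 sorted GFP library (adjusted p = 0.0611 to 0.0643). Exoc4, the Sec8 subunit of the exocyst, which tethers vesicles at the plasma membrane, was at 74.0, 65.6 and 65.4 FPKM against 10.6, 47.2, 18.7 and 22.7 FPKM (-1.61 ± 0.50 SE, adjusted p = 0.0408), a call lost under 11 settings, with an adjusted p of 0.141 to 0.157 without any 1 sorted GFP library. March1, the ubiquitin ligase that takes MHC class II off the surface, was at 23.9, 24.5 and 25.3 FPKM against 9.21, 6.25, 3.64 and 8.60 FPKM (-1.76 ± 0.44 SE, adjusted p = 0.019), a call lost under 5, with an adjusted p of 0.121 to 0.125 without any 1 sorted GFP library. Vps13b, which carries lipid at the Golgi and endosomes, was at 45.2, 50.9 and 43.5 FPKM against 15.4, 29.8, 23.3 and 25.5 FPKM and did not pass (-0.99 ± 0.37 SE, adjusted p = 0.0704).

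Lipid, cyclic nucleotide and kinase signalling genes had 9 members, all tested, with 3 higher and 6 not called. Inpp4b, a phosphatase of phosphoinositides, was at 174, 139 and 149 FPKM in sorted GFP, 143, 127 and 105 FPKM in sorted wild-type and 8.85, 84.4, 35.5 and 80.4 FPKM in laser-captured libraries, with no overlap (-1.95 ± 0.73 SE, adjusted p = 0.0738). Cdk14, a cyclin-dependent kinase of the Wnt pathway, was at 60.8, 58.6 and 65.7 FPKM against 18.5, 38.1, 30.2 and 45.1 FPKM (-0.95 ± 0.39 SE, adjusted p = 0.0945), and Rasgrf2, an exchange factor for Ras and Rac, at 53.6, 68.6 and 59.3 FPKM against 9.91, 17.4, 23.1 and 43.9 FPKM (-1.5 ± 0.51 SE, adjusted p = 0.0534). None of these 3 passed the test, although every laser-captured value was below every sorted GFP value, and Rasgrf2 is 1 of the 4 members with a locus under 500000 bases in the later annotation. Mast4, a microtubule-associated kinase, rose, from 9.88, 9.69 and 9.89 FPKM to 103, 46.3, 55.2 and 41.8 FPKM (2.44 ± 0.42 SE, adjusted p = 0.00378).

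Common fragile site genes had 9 members, all tested: 3 were higher (Lrp1b, Macrod2 and Fam190a), 2 lower (Fhit and Immp2l) and 4 not called. All 3 higher ones were among the 4 under 1 FPKM in every sorted GFP library, where the filter sets the direction. The 5 at 1 FPKM or more there gave 0 higher, 2 lower and 3 not called. Fhit, a dinucleoside triphosphate hydrolase and the best known fragile site gene (chr14:10382606-11994549), had the largest fall of all members, from 42.4, 34.8 and 36.8 FPKM in sorted GFP and 27.4, 28.0 and 35.9 FPKM in sorted wild-type libraries to 0, 0.542, 1.24 and 2.37 FPKM after laser capture (-4.39 ± 0.52 SE, adjusted p = 0.000694). Immp2l, a subunit of the inner mitochondrial membrane peptidase (chr12:41750677-43056575), was listed at 0 in all 4 laser-captured libraries and stood at 18.6, 11.4 and 13.7 FPKM in sorted GFP and 9.02, 15.5 and 14.7 FPKM in sorted wild-type libraries (adjusted p = 0.000316). These were the 2 members of this role with the shortest spliced transcripts, at 1094 and 1147 bases. Park2, which encodes the ubiquitin ligase parkin, was at 58.7, 57.0 and 48.7 FPKM in sorted GFP, 39.4, 39.6 and 24.3 FPKM in sorted wild-type and 0, 11.7, 27.0 and 5.39 FPKM in laser-captured libraries, and just missed the threshold (-3.01 ± 1.02 SE, adjusted p = 0.0545). Nbea, a BEACH-domain protein of membrane sorting, overlapped between the groups (-0.50 ± 0.37 SE, adjusted p = 0.332). Lrp1b, a giant receptor of the low-density lipoprotein receptor family, was at 24.5, 11.5, 13.2 and 24.2 FPKM after laser capture and at most 0.14 FPKM after sorting (4.12 ± 0.46 SE, adjusted p = 0.00057).

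**Figure D4:**
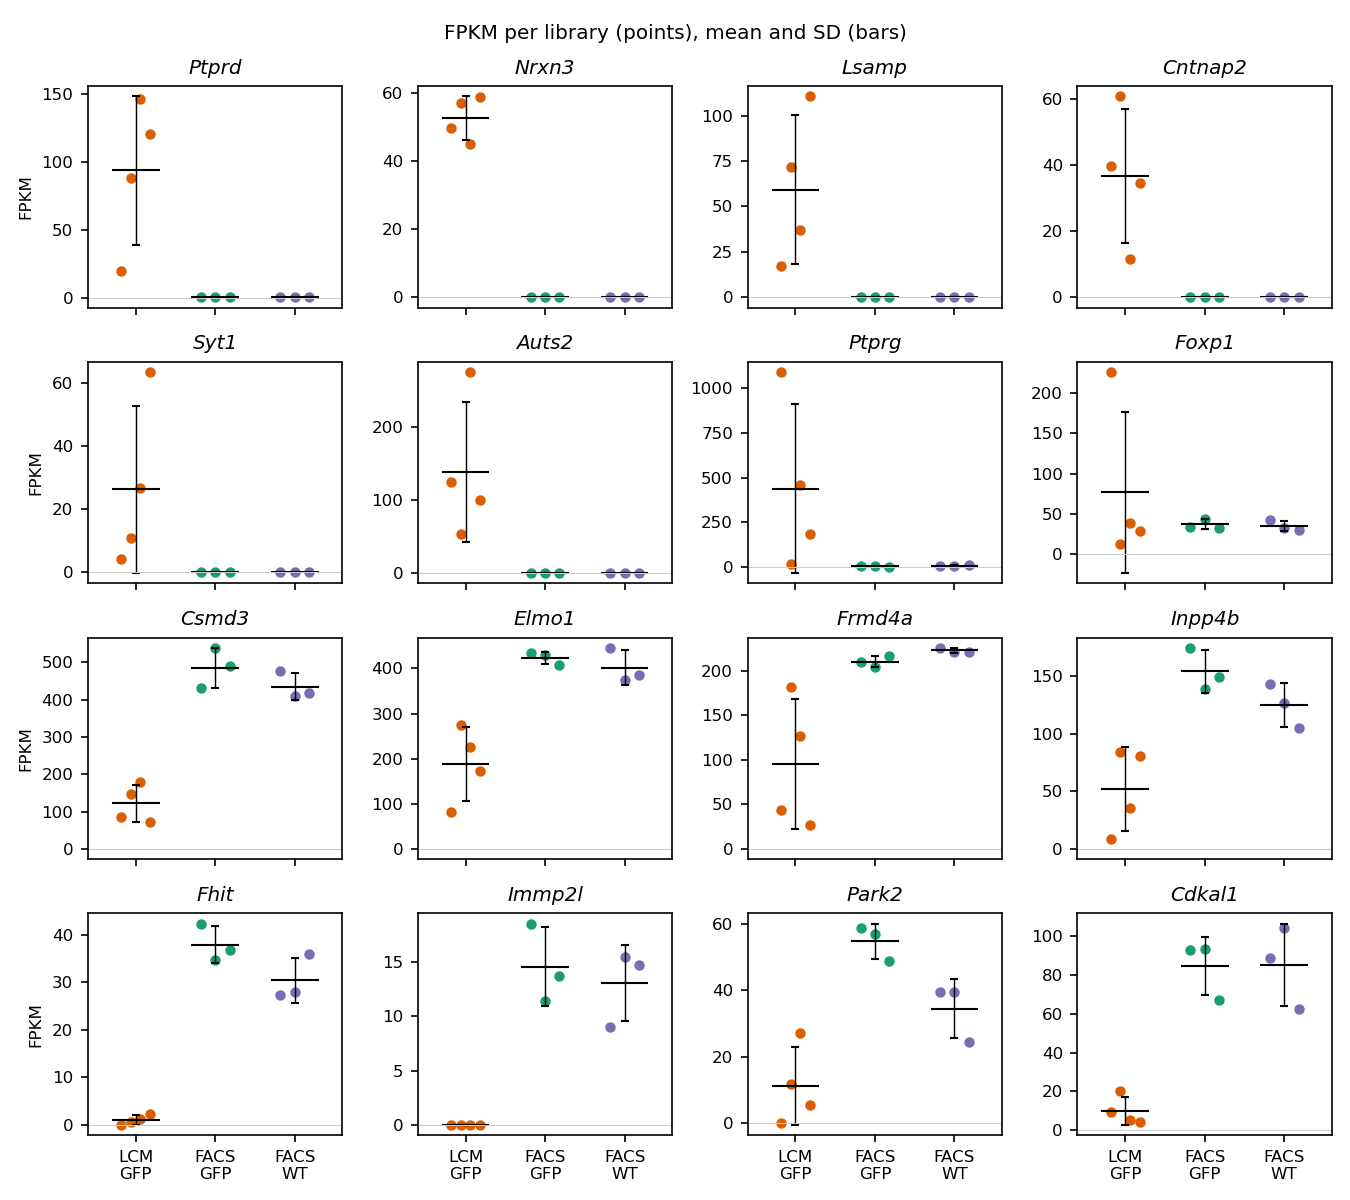
FPKM of 16 very long genes in each library (points), with the mean and SD (bars), for laser-captured GFP (n = 4), sorted GFP (n = 3) and sorted wild-type libraries (n = 3); each panel has its own linear y axis. In the panels from Ptprd to Ptprg the sorted points lie near 0, in those from Csmd3 to Cdkal1 the sorted GFP points lie above all laser-captured points, and in the Foxp1 panel laser-captured library 1 stands alone at 226 FPKM.

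RNA binding proteins had 4 members, of which 3 were tested, 1 was higher and 2 were not called. Celf2, a splicing regulator, was at 96.1, 113 and 87.3 FPKM in sorted GFP and 9.42, 54.2, 37.8 and 59.5 FPKM in laser-captured libraries (-1.54 ± 0.62 SE, adjusted p = 0.09), and Rbfox1, a neuronal splicing regulator, was present after sorting at 9.27, 9.58 and 8.69 FPKM (0.93 ± 0.67 SE, adjusted p = 0.314). Rbms3 was the one that rose (4.11 ± 0.72 SE, adjusted p = 0.0044). Glycan, matrix and secreted proteins had 20 members, with 13 tested, 5 higher and 8 not called, and all 5 higher ones were under 1 FPKM in every sorted GFP library. Gpc5, a heparan sulfate proteoglycan, was at 1.63, 28.1, 15.6 and 24.6 FPKM after laser capture and listed at 0 in sorted GFP libraries (adjusted p = 0.0121). The Gpc5 call was lost without any 1 sorted GFP library (adjusted p = 0.0605 to 0.0625). Large, which glycosylates dystroglycan, was at 36.5, 43.2 and 35.4 FPKM in sorted GFP and 16.7, 8.63, 5.49 and 29.4 FPKM in laser-captured libraries and did not pass (-1.53 ± 0.57 SE, adjusted p = 0.0718). Other proteins had 12 members, with 5 tested, 2 higher, 1 lower and 2 not called. The lower one was Cdkal1, a transfer RNA modifying enzyme at chr13:29283615-29947543, with 93.1, 93.3 and 67.4 FPKM in sorted GFP, 89.0, 105 and 62.4 FPKM in sorted wild-type and 9.40, 20.1, 5.46 and 4.37 FPKM in laser-captured libraries (-3.18 ± 0.54 SE, adjusted p = 0.00361). Of 10 noncoding or uncharacterised members, 4 were tested, 1 was higher (Sox2ot, the transcript overlapping Sox2), 2 were lower (1700112E06Rik and 5033411D12Rik) and 1 was not called.

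Spliced length was set beside the difference for the 51 members present after sorting. Across them, which share the same libraries, Spearman's rho between spliced length and the log2 difference was 0.36, given as a description. The median difference was -4.16 for the 2 with a spliced length under 1.5 kb, -1.69 for 4 of 1.5 to 3 kb, -1.49 for 18 of 3 to 6 kb and -0.50 for 27 of 6 kb or more. Autosomal protein-coding genes at 1 FPKM or more in every sorted GFP library gave -0.93, -1.0, -0.78 and -0.50 for the same classes. The 2 classes under 3 kb hold few members.

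Family relatives of the members with loci under 500000 bases were listed for comparison, and 74 of 75 were found. Of 57 tested, 25 were higher and 6 lower, with a median of 1.24, where 12.5% of all genes were higher and 19.6% lower. The 22 relatives under 1 FPKM in every sorted GFP library, tested only where high after laser capture, hold 21 of the higher calls, and the 32 at 1 FPKM or more there gave 3 higher, 6 lower and 23 not called. Nrxn2 was at 13.8, 14.9, 4.85 and 61.7 FPKM after laser capture and at most 0.0504 FPKM after sorting, and Cntnap1 at 4.19, 17.3, 19.6 and 34.4 FPKM against 1.21, 0.968 and 0.936 FPKM in sorted GFP libraries, as with their longer relatives. Dock8, the leukocyte Dock protein, was lower, at 38.1, 41.6, 35 and 18.5 FPKM against 112, 116 and 107 FPKM. The difference between members and relatives was not tested. Just inside the span threshold, Edil3, Dock1 and Car10 had log2 differences of 4.48, -0.66 and 4.20. Just outside it, Ank3 (493215 bases) and Dnm3 (495582 bases) had 6.36 and 4.88, and Abca13 (492318 bases) was too low to be tested.

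Against sorted wild-type libraries, which share the laser-captured libraries with the comparison above, 151 members were tested, 90 were higher and 9 lower, where 12.3% of all genes were called higher and 19.1% lower (31.4% either way). These groups differ in genotype and sex as well as in isolation method, and the 3 cannot be told apart here. The median was 2.82 over the members and -0.59 over all genes. Side by side with sorted GFP, Csmd3 had -2.07 and -1.92, Fhit -4.39 and -4.08, Cdkal1 -3.18 and -3.18, and Ptprd 5.56 and 5.69. Elmo1 (-1.22, adjusted p = 0.061), Exoc4 (-1.54, adjusted p = 0.0503) and Sdk1 (-1.82, adjusted p = 0.0542), all called lower against sorted GFP, were not called by limma against sorted wild-type. Csmd3 was not called without wild-type library 1 (-1.85, adjusted p = 0.051). Leaving out laser-captured library 1 gave 14 lower members, and leaving out any 1 wild-type library gave 47 to 49 higher and 2 to 3 lower. The authors' deposited table marked 28 of 168 members with a usable test as significant in LCM_GFP against FACS_GFP (26 higher, 2 lower, Immp2l and Slc9a9), where it marked 5.13% of all genes. Against FACS_WT the authors' deposited table marked 18 of 170 members, all higher, where it marked 5.01% of all genes.

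The comparison of FACS_GFP with FACS_WT asked whether the GFP mice differed from wild-type when the method was the same. No very long gene was called. Of 51 members tested by limma, 0 passed, 9 had an unadjusted p under 0.05, and the smallest adjusted p was 0.253, where 0.11% of all 11814 genes were called (0.0339% higher, 0.0762% lower) and 13.1% had an unadjusted p under 0.05. The authors' deposited table marked 0 of 59 members, where it marked 0.321% of all genes. The log2 differences ranged from -0.34 (Gmds) to 0.68 (Park2), with 38 above 0 and 13 below, and a median of 0.12 against 0.00 over all genes. In 12 members every sorted GFP library was above every wild-type library and in 2 below, where 11.5% of all genes had sorted GFP above and 20.8% had groups that did not overlap in either direction. Rbfox1 had the smallest adjusted p, at 9.27, 9.58 and 8.69 FPKM in sorted GFP and 7.03, 5.65 and 4.32 FPKM in sorted wild-type libraries (0.63 ± 0.17 SE, adjusted p = 0.253), and Park2 was at 58.7, 57.0 and 48.7 against 39.4, 39.6 and 24.3 FPKM (0.68 ± 0.19 SE, adjusted p = 0.264). All wild-type libraries were from males and the GFP libraries from both sexes, so genotype and sex cannot be told apart.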

How the data were processed

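The authors deposited FPKM per gene and library, made with Cufflinks 2.0.2, Bowtie2 2.0.0, TopHat2 2.0.4 and CASAVA 1.8.2 on mm9, per the submitters' processing notes. The annotation release and any scaling between libraries are not given in the sources used here. The authors' deposited comparison table, per the file headers, holds a p-value and a q-value with a significance mark, which was counted for the members. FPKM sums were 393949 to 632854 per library. Steps between low values gave whole reads for only 55.4% to 63.1% of them (within 0.2 of a whole number), so read depth is unknown and no counting intervals are given. Of 37 mitochondrial genes, 33 are listed at 0 in every library, so a 0 can be a failed estimate.

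Each comparison was fitted on its 2 groups with limma 3.58.1 (trend, robust, statmod 1.5.0, R 4.3.3) on log2(FPKM + 1). Genes with at least 1 FPKM in 3 compared libraries were tested, two-sided, with Benjamini-Hochberg adjustment over all of them at 0.05. A pseudocount of 1 understates the change of low genes. The fit was tested on simulated data, where in both comparisons with the laser-captured group it missed more of the shifted genes than it called. Alternatives were pseudocounts of 0.1 and 5, no filter, median-ratio and quantile scaling, a replicate block, and leaving out libraries. Loci start at 0 in the files, and 1 was added. Named are, per role, up to 4 members by mean FPKM, the 8 largest called changes each way, the 6 highest after sorting, the 3 longest and those next to the span threshold, with other genes chosen after their values were seen. 1 gene that this rule selects is not reported here. Members and lists were chosen with earlier results of these data known, and some roles were added after the member names were seen. Tables were handled with pandas 2.3.3.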

Additional observations from a re-analysis of the deposited data

Results flagged for a closer look

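For 2 of the named very long genes, laser-captured library 1 stood apart from the other 3 laser-captured libraries by Dixon's test at the 95% level. Foxp1 was at 226 FPKM in library 1, against 13.0, 38.8 and 28.6 FPKM in libraries 2, 3 and 4. Ptprm was at 17.5 FPKM in library 1, against 33.3, 33.7 and 35.8 FPKM in the others. Chance flags about 1 in 20 groups of 4, and the test was run on the named genes only. Members outside that list can also have 1 laser-captured library far from the rest. In libraries 1 to 4, Etl4 was at 188, 34.6, 23.1 and 28.1 FPKM and Mecom at 77.6, 2.48, 0.969 and 4.32 FPKM. Dpp10 was at 1.22, 2.45, 2.14 and 22.8 FPKM, with library 4 apart. Library 1 also held the largest summed level of Hbb-y, Mki67 and Top2a, at 1355 FPKM, and its part in these 2 values was not tested.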

How the results depend on the processing

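Among the named genes called in the main fit, no alternative reversed the direction where the gene was tested. Named genes that were not called were not followed in this way, and their direction may change. For LCM_GFP against FACS_GFP, leaving out single libraries gave 47 to 98 members higher and 3 to 19 lower. For LCM_GFP against FACS_WT it gave 47 to 98 higher and 2 to 14 lower. With laser-captured libraries 2 and 4 alone, 10 were higher and 19 lower against sorted GFP and 8 and 14 against sorted wild-type, and the members' median turned from 2.80 to -0.76 and from 2.82 to -0.58. By construction this keeps only members with a value in a sorted library (53 and 51 tested). Requiring 1 FPKM in 2 libraries instead, an alternative chosen after seeing the data, gave 107 higher and 19 lower against sorted GFP and 107 and 15 against wild-type. The other settings gave 71 to 101 higher and 8 to 16 lower against sorted GFP. The cause of the shifts without single libraries was not tested. No member was called in FACS_GFP against FACS_WT by limma under any of its 12 alternatives. With the replicate block, 81 members were higher and 11 lower against sorted GFP, 83 and 11 against wild-type, and 0 between the sorted groups. Libraries with the same number did not deviate together in the laser-capture comparisons (r of -0.0161, 0.00635 and -0.0286, then -0.0401, -0.00202 and -0.0134). Between sorted groups r was 0.141, 0.0102 and 0.214 for the same number and -0.224 to 0.0885 for different numbers. The labels do not tie a number to an animal, so numbers were not taken as pairs. With 4 against 3 libraries and a wide spread among the laser-captured ones, a member that was not called may still differ, also by a large amount.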
